A study of Arabidopsis thaliana with 12 samples.

Results

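Isoxaben against its solvent control was the comparison examined: 3 RNA-seq libraries of Arabidopsis thaliana seedlings given 600 nM isoxaben for 6 h and 3 libraries of seedlings given the DMSO mock for the same time. All were whole seedlings of the wild-type accession Col-0, 10 days old, grown and treated in liquid medium, and every treatment carried the same amount of DMSO. The genes described are those with a mean of at least 0.5 FPKM (fragments per kilobase of gene, scaled to library depth) over the 12 libraries of the series, which were 20248 of the 32833 genes in the table, 19606 of them protein-coding. The other 12585 genes fell under that level and were not tested. The remaining 6 libraries were seedlings given 10 nM of the danger peptide PEP3, alone or together with 600 nM isoxaben. They served as a repeat of the isoxaben effect in other libraries, under a different condition, since PEP3 was present in both groups. A gene nearly silent in DMSO enters only through its level after treatment, so the counts below are of measured genes.

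Cellulose is made at the plasma membrane by rosette-shaped complexes of cellulose synthase (CESA) proteins, which extrude glucan chains into the wall as they move along cortical microtubules. Isoxaben is a herbicide that stops primary-wall cellulose synthesis and clears these complexes from the membrane. Plants monitor the state of their walls through receptor kinases, and wall damage is known to bring on jasmonate, salicylate, ethylene, lignin and calcium responses.

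The deposited values corresponded to between 16995775 and 22793764 fragments per library, with 22776 to 23068 genes above 0. Replicates of a treatment correlated across genes at r = 0.986 to 0.991 (log2 values). No pair was as close as sampling noise alone would give, so all 3 libraries of each treatment were counted. Genes typical of several organs, such as those of the photosystems, root hairs, phloem and guard cells, were present in all libraries, as whole seedlings would have. In bulk seedlings, fewer cells of a type and less RNA per cell cannot be told apart, which applies to every decrease below. The labels call the 3 libraries biological replicates without saying whether they came from separate cultures, so the p-values measure the spread between these libraries.

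Isoxaben changed the level of 6577 genes, 32.5% of those tested, at a Benjamini-Hochberg adjusted p under 0.05 in limma on log2(FPKM + 1). Of these, 3503 were higher (17.3% of all genes tested) and 3074 were lower (15.2%), so 53.3% of the calls were increases. Under quantile normalisation 42.6% were. The rises were the larger changes: 914 genes (4.51%) rose and 156 (0.77%) fell by at least 1 in log2(FPKM + 1), a scale on which genes of low FPKM appear to change less than they did. All log2 changes below are on that scale, with their standard errors (SE), and all adjusted p-values are from the limma fit over all 20248 genes. The isoxaben libraries were not equally far from the mock. Among the 914 genes, replicate 2 was the highest of the 3 isoxaben libraries in 649 and replicate 3 the lowest in 672, with median changes of 1.69 in replicate 2, 1.53 in replicate 1 and 1.37 in replicate 3. For the 156 genes that fell, replicate 2 was the lowest in 105.

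**Figure D1:**
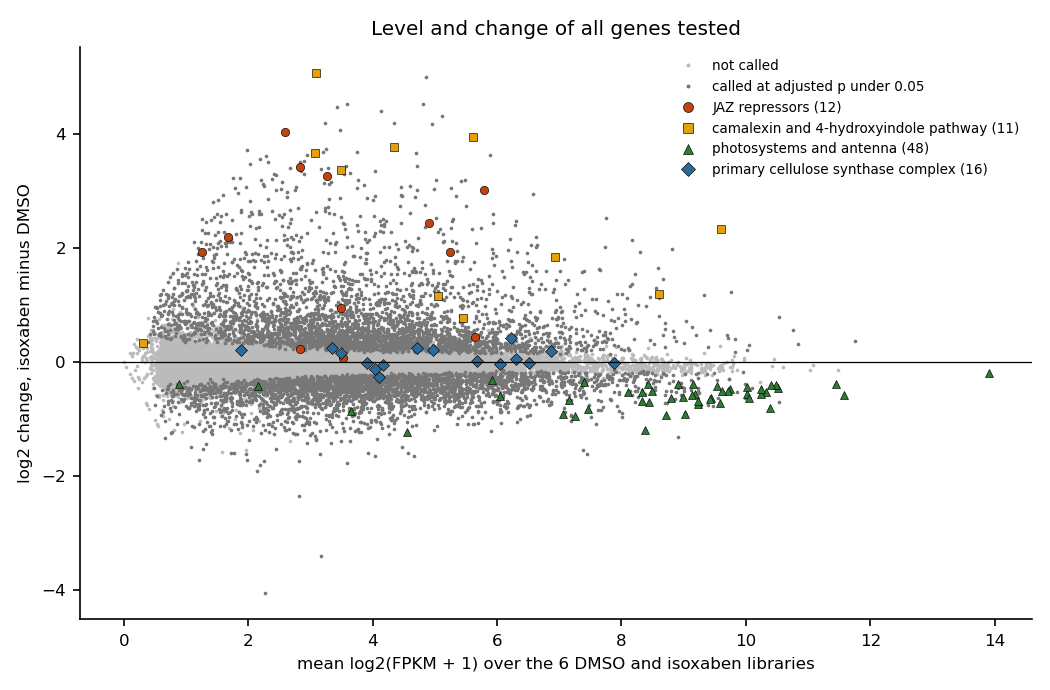
Log2 change between isoxaben and DMSO (vertical axis, log2(FPKM + 1) scale) against the mean level of each gene (horizontal axis, mean log2(FPKM + 1) over the 6 libraries), for the 20248 genes tested. Dark grey points are genes called, light grey points are not, and coloured marks show 4 lists. Rises are the larger changes, with 914 genes called at or above 1 against 156 at or below -1, and the cellulose synthase genes lie near 0.

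Transcripts of the catalytic subunits targeted by isoxaben were not called as changed. CESA1 (AT4G32410, chromosome 4, 15640490 to 15646844, minus strand, TAIR10 coordinates as deposited), a core subunit of the primary-wall complex, was at 64.9, 65.8 and 67.7 FPKM in DMSO and 65.3, 64.3 and 64.9 in isoxaben. CESA3 was at 77.4, 75.7 and 76 FPKM in DMSO and 78.7, 79.8 and 78.9 in isoxaben, and CESA6 at 49.4, 48.7 and 50.9 and then 49.5, 52.2 and 49.3. The log2 changes were -0.03 ± 0.06 (SE, n = 3 per group, adjusted p = 0.777), 0.05 ± 0.06 (adjusted p = 0.594) and 0.02 ± 0.06 (adjusted p = 0.851). CSI1, which links the complex to microtubules, had a change of -0.01 ± 0.09 (adjusted p = 0.924). The shares over all genes tested were 17.3% higher and 15.2% lower. Of 16 tested genes of the primary complex and its partners, 3 rose (18.8%) and 1 fell (6.25%), none by 1 or more. Those that rose were the companion protein gene AT1G45688, from 59.5 to 68.8 FPKM in DMSO to 84.2 to 87.1 in isoxaben (0.42 ± 0.06, adjusted p = 0.000128), the endoglucanase KOR (0.20), and CESA2 (0.21 ± 0.07, adjusted p = 0.0329). CESA5 fell (-0.26 ± 0.08, adjusted p = 0.0232). The CESA2 call was lost without replicate 2 or 3 of either treatment, under quantile normalisation and without the variance trend. The CESA5 call was lost without DMSO replicate 1 or 3 or isoxaben replicate 1 or 2. Under quantile normalisation the list held 1 higher and 1 lower gene. The secondary-wall genes, with CESA4, CESA7 and CESA8 uncalled, had 2 of 17 higher (11.8%) and 0 lower. Those 2 were ATMYB63, a lignin regulator, and the chitinase-like gene CTL2, whose call was lost without DMSO replicate 2.

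**Figure D2:**
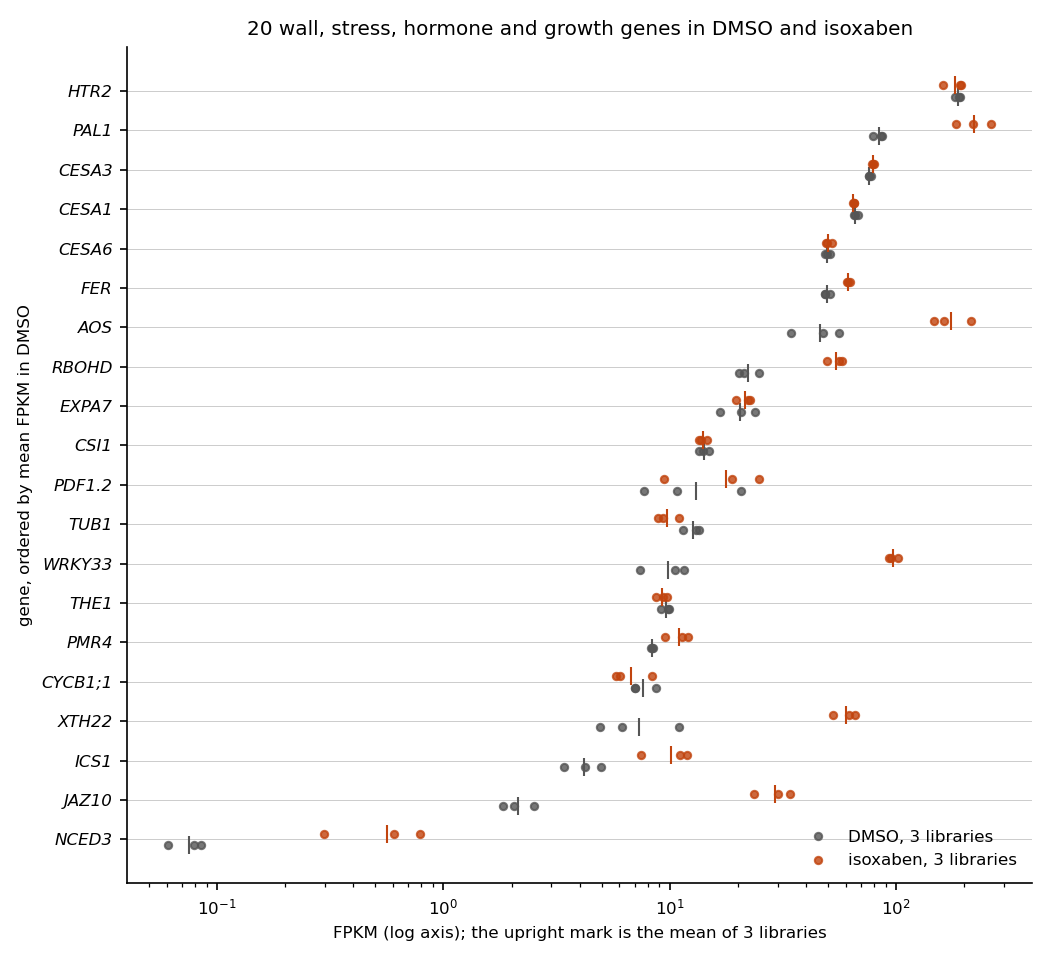
FPKM in each DMSO and isoxaben library (points, log axis; upright marks are means of 3) for the panel of 20 genes, of which 19 were tested and 10 called. CESA1 and CESA6 overlap between the treatments, while JAZ10, WRKY33 and XTH22 are higher in every isoxaben library than in any DMSO library.

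Genes that build or remodel the wall matrix moved in both directions, by family, beside 17.3% higher and 15.2% lower over all genes tested. Xyloglucan synthesis, the main hemicellulose pathway of the primary wall, had 5 of 13 tested genes higher and 0 lower. Its glucan synthase CSLC4 was at 20.4, 19.3 and 23 FPKM in DMSO and 48.4, 49 and 43.2 in isoxaben, a rise of 1.13 ± 0.08 (adjusted p = 2.31e-07), and the xylosyltransferase XXT1 rose by 0.84 ± 0.14 (adjusted p = 0.000356). Pectin synthesis had 9 of 27 higher and 3 lower, or 8 and 6 under quantile normalisation and 1 lower without DMSO replicate 1 or 2 or isoxaben replicate 1. The rises were led by the galacturonosyltransferase-like genes GATL2 (2.03 ± 0.10) and GATL10 (1.74 ± 0.10). Pectin methylesterases and their inhibitors, which set the charge of pectin, split evenly with 10 of 48 higher and 9 lower: PME41 rose by 2.35 ± 0.10 and the inhibitor PMEI4 fell by 1.49 on the log2 scale. The pectin-cutting pectate lyases and polygalacturonases fell in 12 of 24 and rose in 1, AT5G04310.

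Expansins, which loosen walls during growth, also split by subgroup. Of 23 tested, 12 fell and 4 rose. EXPA8 was at 2.73, 2.93 and 3.71 FPKM in DMSO and 0.773, 0.27 and 0.307 in isoxaben (-1.52 ± 0.19, adjusted p = 3.42e-05), and EXPB1 changed by -1.22 ± 0.15. Those that rose were all 3 expansin-like A genes, EXLA1 (1.61 ± 0.13), EXLA2 (1.12) and EXLA3 (1.22), and ATEXPA12 (1.61 ± 0.25). EXPA7, a root hair expansin, had 16.8, 23.8 and 20.6 FPKM in DMSO and 22.1, 22.7 and 19.6 in isoxaben, and was not called. The xyloglucan endotransglucosylases (XTH), which cut and rejoin xyloglucan, had 9 of 28 higher and 7 lower. XTH22 (AT5G57560, chromosome 5, 23307006 to 23308680), known as a touch-induced gene, was at 6.15, 4.92 and 11 FPKM in DMSO and 61.7, 65.7 and 52.9 in isoxaben (2.93 ± 0.20, adjusted p = 1.41e-07), and XTH23 rose by 3.02 ± 0.13. XTH6 and XTH21 fell by 1.19 and 1.11 on the log2 scale.

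Arabinogalactan proteins, heavily glycosylated wall and membrane proteins, fell in 14 of 43 and rose in 7. AGP14 went from 46.6, 44.4 and 40.5 FPKM in DMSO to 13.9, 12.4 and 13.8 in isoxaben (-1.64 ± 0.16, adjusted p = 3.74e-06), while AGP5 rose by 2.90 ± 0.26. Extensins and proline-rich proteins had 6 of 19 higher and 2 lower, and 12 were higher without DMSO replicate 3. The most abundant riser, the extensin gene ATEXT4, was at 534, 585 and 588 FPKM in DMSO and 1283, 1420.4 and 1301 in isoxaben (1.23 ± 0.09, adjusted p = 2.23e-07), and PRP4 fell from 202, 208 and 209 to 105, 90.3 and 107. Class III peroxidases, secreted enzymes that crosslink walls, had 26 of 62 higher, 14 of them by 1 or more, and 8 lower. PER62 (AT5G39580, chromosome 5, 15847065 to 15849141) was at 7.13, 5.48 and 8.01 FPKM in DMSO and 161, 173 and 132 in isoxaben (4.32 ± 0.13, adjusted p = 1.75e-10). The cuticle and wax genes of the shoot surface fell in 10 of 18 and rose in 0, with the fatty acyl reductase FAR3 the lowest at -1.08 ± 0.14. Other wall lists were near or under the 17.3% higher and 15.2% lower over all genes tested. Suberin and Casparian strip genes of the root had 3 of 18 higher (16.7%) and 0 lower. The higher count was 1 without DMSO replicate 2 or isoxaben replicate 1, and 5 without isoxaben replicate 3. Laccases had 2 of 11 higher (18.2%), LAC1 and LAC8. Callose synthases had 1 of 10 higher (10%), the defence callose synthase PMR4 (0.35 ± 0.09, adjusted p = 0.00907), and 1 lower (10%), CALS1 (-0.38 ± 0.09).

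The phenylpropanoid pathway, from phenylalanine to the lignin monomers, rose in 16 of 19 tested genes with a median change of 0.73 against -0.01 over all genes. PAL1 (AT2G37040, chromosome 2, 15557367 to 15560755), the entry enzyme, was at 78.8, 87.1 and 86.1 FPKM in DMSO and 218, 263 and 185 in isoxaben (1.38 ± 0.10, adjusted p = 3.19e-07). The largest rises were those of the cinnamoyl-CoA reductase CCR2 (3.40 ± 0.17), an isoform linked to pathogen responses, and 4CL4 (2.61 ± 0.19), whereas the developmental reductase CCR1 rose by 0.36. The 2 that fell were PAL3 (-0.40 ± 0.13) and 4CL3 (-0.56 ± 0.15), the ligase of the flavonoid branch, and the PAL3 call was lost without DMSO replicate 1 or 2 or isoxaben replicate 1 or 2. Downstream of 4CL3, the flavonoid and anthocyanin genes fell in 11 of 21 and rose in 1, the anthocyanin regulator MYB113, and the flavonol regulator MYB111 went from 4.29, 4.08 and 4 FPKM to 1.54, 0.931 and 1.85 (-1.09 ± 0.17, adjusted p = 0.000193). Without isoxaben replicate 2, 7 flavonoid genes were lower. CCR2 and 4CL4 overlap the expressed genes NRAMP1 and MKK5 on the other strand, by 132 and 459 bases, and the sources used here do not say whether reads were counted by strand.

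Among receptors and early signalling genes, the calls were almost all increases. The wall-sensing CrRLK1L kinases moved little: THE1, which is required for responses to isoxaben, was at 9.93, 9.17 and 9.83 FPKM in DMSO and 9.35, 9.74 and 8.7 in isoxaben (-0.05 ± 0.09, adjusted p = 0.718). FER, at 48.8, 48.7 and 51.2 and then 60.6, 62.4 and 61.4 FPKM, rose by 0.31 ± 0.07 (adjusted p = 0.00408). In that family 4 of 12 rose, the others being AT5G39020 (1.28 ± 0.09), AT5G39030 (0.74 ± 0.13) and AT5G38990 (0.46), and HERK2 fell (-0.32 ± 0.10). The HERK2 call was lost without DMSO replicate 1 or 2 or isoxaben replicate 1 or 2, with only the 6 libraries compared and with the replicate number as a block. Of 9 tested RALF peptides, ligands of these kinases, 3 rose and 2 fell. Wall-associated kinases, which bind pectin, had 8 of 16 higher and 0 lower, led by WAKL10 (2.26 ± 0.19). Receptors of microbial patterns and their partners rose in 16 of 18, among them the chitin receptor components CERK1 (0.72) and LYK5 (1.09), MIK2 (1.15), a kinase also tied to the isoxaben response, EFR (0.76), the receptor of bacterial elongation factor Tu, the co-receptor BAK1 (0.66) and SERK4 (1.77 ± 0.10). Cysteine-rich receptor-like kinases had 22 of 31 higher and only CRK30 lower.

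The PEP system itself, which signals damage from cell to cell, had 6 of 8 genes higher. PROPEP3, the precursor of the PEP3 peptide, was at 0.715, 1.82 and 1.14 FPKM in DMSO and 18.2, 17 and 13.9 in isoxaben (2.98 ± 0.20, adjusted p = 1.15e-07), PROPEP2 rose by 2.64 ± 0.21, and both receptors rose, PEPR2 by 1.67. Of calmodulin-like and other calcium sensors 27 of 48 rose and 2 fell (CBL2 and CBL10). CML12, also called TCH3, was at 30.8, 33.6 and 36.4 FPKM in DMSO and 266, 277 and 254 in isoxaben (2.95 ± 0.09, adjusted p = 1.75e-10). Calcium-permeable channels had 13 of 39 higher, led by CNGC13 (1.67 ± 0.12) and CNGC19 (1.65 ± 0.14), and 5 lower, with CNGC4 and the osmosensitive OSCA1 both at -0.48. Among NADPH oxidases, which make apoplastic superoxide, 4 of 8 rose: RBOHD (20.3, 21.2 and 24.9 FPKM to 55.8, 57.8 and 49.8; 1.26 ± 0.09), RBOHF (0.59 ± 0.07), RBOHC (0.55 ± 0.13) and RBOHE (0.44). MAP kinase cascade genes had 20 of 45 higher and 0 lower (17 and 2 under quantile normalisation), led by MAPKKK19 (3.23 ± 0.25).

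After camalexin, jasmonate catabolism and the JAZ repressors had the highest list medians. Jasmonate synthesis genes rose in 11 of 17 and fell in 0, with LOX4 (3.51 ± 0.14), AOC3 (3.21 ± 0.11) and AOS, whose FPKM went from 34.5, 47.7 and 55.9 to 163, 214 and 147 (1.91 ± 0.16, adjusted p = 9.13e-07). The JAZ repressors, made in response to jasmonate and holding it in check, rose in 10 of 12 with a median change of 2.07. JAZ10 (AT5G13220, chromosome 5, 4218786 to 4221077) was at 1.84, 2.5 and 2.05 FPKM in DMSO and 30.1, 34.1 and 23.7 in isoxaben (3.26 ± 0.12, adjusted p = 1.25e-09). JAZ8, deposited as TIFY5A, was at 0, 0.619 and 1.07 FPKM and then 23.1, 31.6 and 17.8 (4.04 ± 0.25, adjusted p = 6.06e-08). The enzymes that inactivate jasmonate rose in 8 of 10, with CYP94C1 at 3.40 ± 0.14 and the jasmonate oxidase AT2G38240, deposited under the symbol ANS, at 3.30 ± 0.18. Of genes that respond to jasmonate or wounding, 7 of 14 rose and MYC4, a jasmonate transcription factor, fell (-0.33 ± 0.10), a call lost without any one DMSO replicate or isoxaben replicate 1 or 3. PDF1.2, a defensin read out for joint jasmonate and ethylene signalling, was at 7.69, 20.7 and 10.8 FPKM in DMSO and 9.47, 24.8 and 18.8 in isoxaben and was not called (0.42 ± 0.43, adjusted p = 0.502).

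Salicylic acid genes rose in 16 of 19 and fell in 0, with a median of 1.09. ICS1, the main synthesis enzyme, was at 4.23, 3.41 and 4.95 FPKM in DMSO and 11.1, 12 and 7.45 in isoxaben (1.09 ± 0.16, adjusted p = 0.000167), its regulator CBP60G rose by 2.51 ± 0.12 and PBS3, a later enzyme of that route, by 2.46 ± 0.17. Of the 5 pathogenesis-related genes, which encode secreted defence proteins, 3 rose, and the summed level of the 5 was 670 to 924 FPKM in DMSO and 933 to 1199 in isoxaben. PR1 itself was low and reached 2.5, 1.09 and 1.54 FPKM from 0.514, 0.184 and 0.12 (1.07 ± 0.33, adjusted p = 0.0232), a call lost without DMSO replicate 2 or 3 or isoxaben replicate 1. PR2 rose by 1.29 ± 0.19 and PR5 by 0.73. Ethylene genes had 14 of 20 higher, with the synthases ACS6 (2.42 ± 0.12) and ACS11 (2.09 ± 0.15), and the transcription factor EIL1 lower (-0.34 ± 0.08). Abscisic acid synthesis and signalling split into 9 higher and 6 lower of 28. NCED3, its drought-induced synthesis enzyme, was under the level for testing, at 0.0849, 0.0609 and 0.0791 FPKM in DMSO and 0.788, 0.605 and 0.298 in isoxaben. Genes of abscisic acid and dehydration output had 5 of 13 higher, with the NAC factor RD26 at 1.25 ± 0.16, and 2 lower (RD22 and COR47). The COR47 call was lost without DMSO replicate 1 or 2 or isoxaben replicate 2 or 3.

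Genes of the growth hormones changed in both directions, beside 17.3% higher and 15.2% lower over all genes tested. Some lists lay near those shares. They were Aux/IAA and GH3 (25.9% higher, 18.5% lower), cytokinin metabolism (23.5% and 11.8%) and brassinosteroid genes (14.3% and 21.4%). SAUR genes, which respond to auxin during elongation, fell in 7 of 20 and rose in 2. SAUR50 went from 15.1, 18 and 18.7 FPKM to 5.45, 5.3 and 7.47 (-1.37 ± 0.14, adjusted p = 6.37e-06), and SAUR71 and SAUR72 rose. The count of lower SAUR genes was 4 without DMSO replicate 3, isoxaben replicate 1 or isoxaben replicate 2. Aux/IAA and GH3 genes had 7 of 27 higher, led by GH3.3 (1.72 ± 0.14), and 5 lower, a count of 3 without DMSO replicate 1. Auxin synthesis and transport fell in 7 of 27 and rose in 3, with the auxin exporter PIN7 at 27.5, 23.9 and 24.4 FPKM and then 14.5, 13.4 and 14.1 (-0.81 ± 0.08, adjusted p = 5.13e-06). In the gibberellin pathway, 6 of 22 fell and 3 rose by at least 1: the synthesis enzyme GA3OX1 (-0.89 ± 0.11) and the growth-associated GASA6 (-1.81 ± 0.22) fell, and the inactivating enzymes GA2OX6 (1.42 ± 0.14) and GA2OX2 (1.07 ± 0.18) rose. Type-A response regulators of cytokinin had 3 of 9 lower (ARR6, ARR9 and ARR16), but 1 without the level filter, DMSO replicate 1 or 2 or isoxaben replicate 1 or 2, and the ARR16 call was lost in each of these fits. Under TPM scaling or with the trend on gene length removed, 2 were lower. Cytokinin metabolism had 4 of 17 higher and 2 lower (0 lower without DMSO replicate 1 or 2 or isoxaben replicate 1 or 2), and brassinosteroid genes 3 of 14 lower and 2 higher (1 higher without DMSO replicate 2 or isoxaben replicate 1 or 2, and 4 without DMSO replicate 3).

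Most genes of the defence compounds made from tryptophan rose. Tryptophan synthesis had 8 of 11 genes higher, with the anthranilate synthase subunits ASA1 at 25.7, 30 and 32.2 FPKM in DMSO and 112, 159.9 and 95.6 in isoxaben (2.00 ± 0.14, adjusted p = 2.17e-07) and ASB1 at 2.02 ± 0.14. The 1 lower call, PAI1 (-0.24 ± 0.09), was lost without DMSO replicate 1 or 2 or isoxaben replicate 1 or 2, without the level filter, with only the 6 libraries compared, with the replicate number as a block and without the variance trend. PAI2 rose, and the PAI copies share most of their sequence, so reads may be split between them. Camalexin and related indoles rose in 10 of 11, with a median of 2.33. The camalexin-forming enzyme PAD3 (CYP71B15, chromosome 3, 9887917 to 9889791) was at 7.7, 10.9 and 17.8 FPKM and then 173, 312 and 132 (3.96 ± 0.28, adjusted p = 2.2e-07). Indole glucosinolate genes rose in 12 of 15 and fell in 0, led by CYP81F2 (3.68 ± 0.18) and the methyltransferase AT1G21120 (3.30 ± 0.18), which is 96.7% identical to a neighbouring copy. The methionine-derived aliphatic glucosinolates did the reverse, with 7 of 20 lower and 2 higher. Their regulators MYB28 and MYB29 fell by 0.52 and 0.69 on the log2 scale, whereas the indole regulator MYB51 went from 10.7, 12.1 and 12 FPKM to 60.9, 68.6 and 63.5 (2.38 ± 0.13, adjusted p = 1.87e-08). Sulfate assimilation, which supplies both classes, had 9 of 18 higher, led by the kinase APK2 (1.28 ± 0.13) and the ATP sulfurylase APS1 (1.12 ± 0.11), and 3 lower. Glutathione transferases had 20 of 46 higher and 6 lower, glycosyltransferases 28 of 81 and 8, full-size ABCG exporters 6 of 12 and 1, and TIR-domain immune receptors 20 of 62 and 2. The berberine bridge enzyme-like oxidases, which include FOX1 (3.67 ± 0.24) of the 4-hydroxyindole branch, had 12 of 18 higher and 4 lower, and defensins and thionins 3 of 12 higher and 1 lower.

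**Figure D3:**
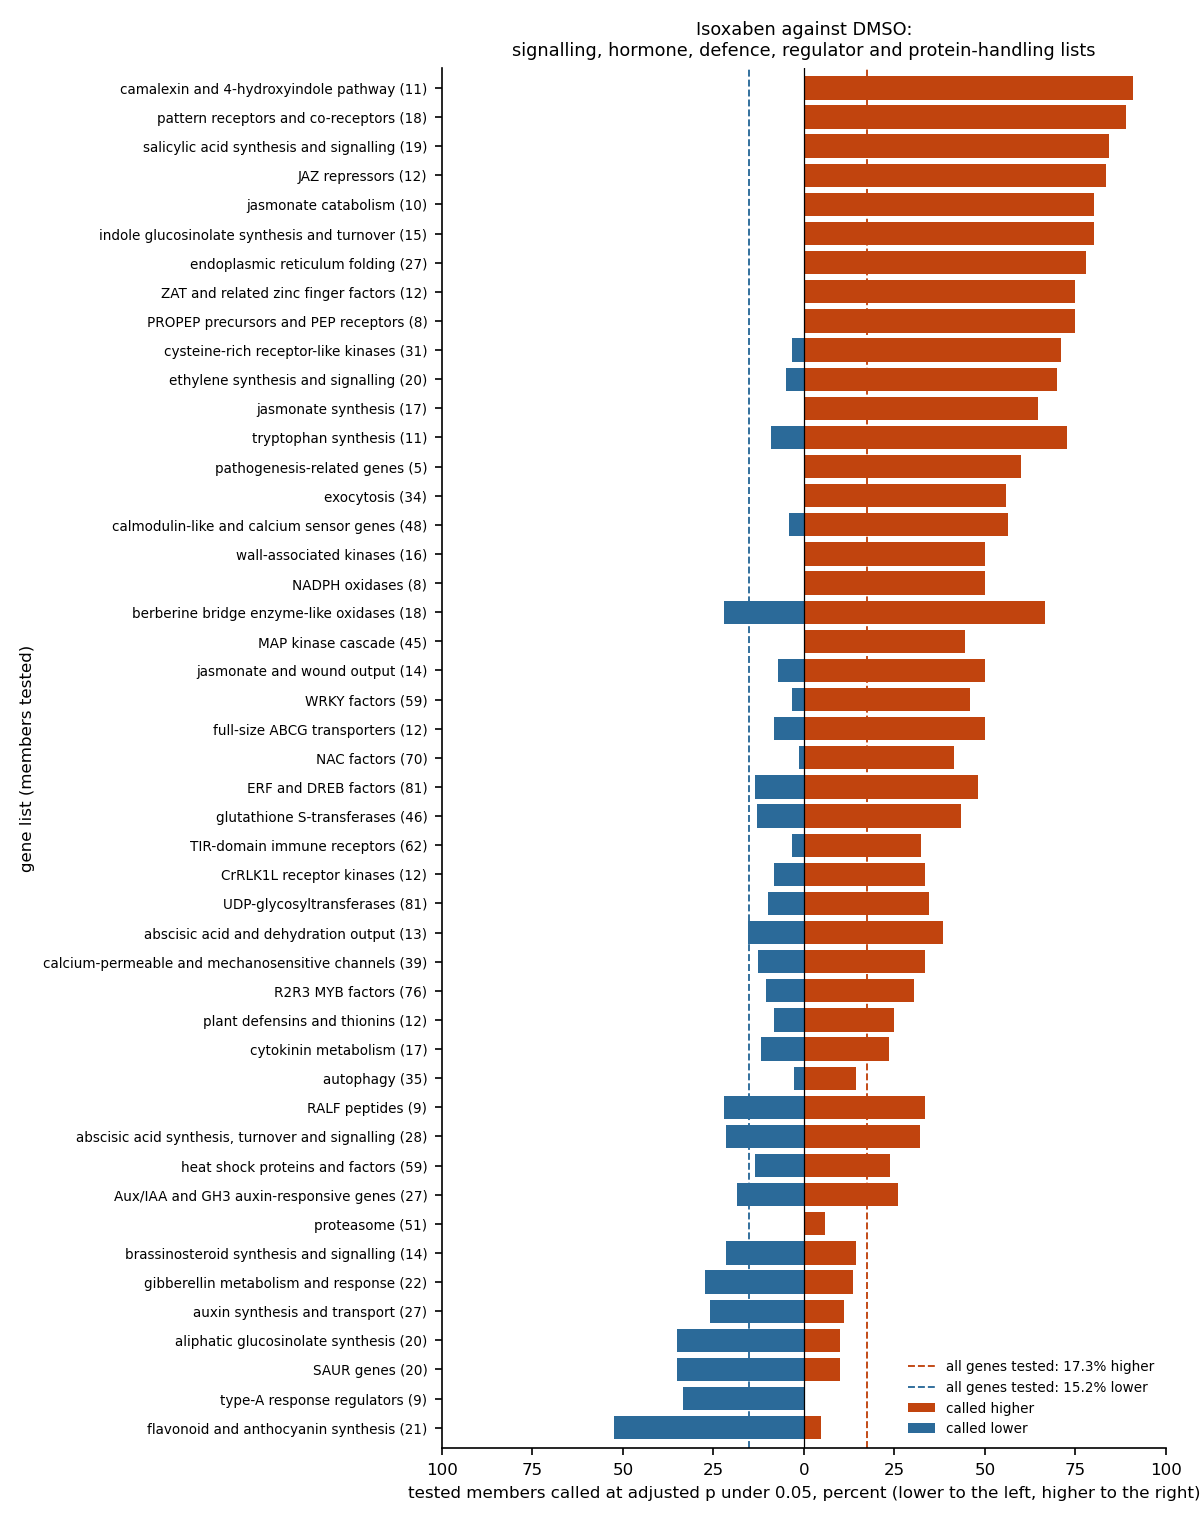
Percent of tested members higher (right) and lower (left) after isoxaben for the lists of receptors, signalling, hormones, defence, regulators and protein handling, ordered by the difference. Dashed lines mark the shares over all genes, 17.3% higher and 15.2% lower. The pattern receptors (16 of 18 higher) and camalexin genes (10 of 11 higher) stand at the top, and flavonoid genes (11 of 21 lower) at the bottom.

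The stress-related families of transcription factors held many of the largest rises. Of 59 WRKY factors 27 rose, 18 by 1 or more, and 2 fell (WRKY3 and WRKY49). WRKY33 (AT2G38470, chromosome 2, 16108235 to 16110766), which activates camalexin genes, was at 7.43, 10.5 and 11.6 FPKM in DMSO and 95.4, 102 and 93.1 in isoxaben (3.19 ± 0.15, adjusted p = 6.29e-09), and WRKY40 rose by 4.41 ± 0.13. ERF and DREB factors had 39 of 81 higher, 25 by 1 or more, led by ERF1 (3.52 ± 0.14) and ERF13 (3.28 ± 0.23), and 11 lower, a count of 7 without DMSO replicate 3 or isoxaben replicate 2. NAC factors had 29 of 70 higher and 1 lower (NAC105, a call lost without any one of the 6 libraries compared, with the replicate number as a block, with voom and with a pseudocount of 0.1), and ZAT zinc fingers 9 of 12 higher, with ZAT10 at 3.44 ± 0.20. R2R3 MYB factors had 23 of 76 higher, led by the lignin regulator MYB15 (1.32, 1.77 and 2.04 FPKM to 43.2, 53.3 and 38.5; 4.08 ± 0.12), and 8 lower.

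Promoters of 4 genes that rose steeply are shown because they carry words read by regulators of these responses: the W-box core TTGACC, bound by WRKY factors, the CGCGTT word of calmodulin-binding transcription activators and the G-box CACGTG, bound by bHLH and bZIP factors. Each runs from 250 bases before to 50 bases after the annotated gene start, 5′ to 3′ on the gene's strand, from the RefSeq TAIR10.1 genome, and words found on either strand are in capitals. WRKY33 lies at chr2:16107985-16108284 (plus strand), JAZ8 at chr1:10596102-10596401 (plus), AT1G56060 at chr1:20967131-20967430 (minus) and PER62 at chr5:15849092-15849391 (minus). AT1G56060, on no list, rose from 0.168, 0.201 and 1.17 FPKM to 26.6, 24.1 and 18.4 (4.04 ± 0.25, adjusted p = 6e-08).
WRKY33: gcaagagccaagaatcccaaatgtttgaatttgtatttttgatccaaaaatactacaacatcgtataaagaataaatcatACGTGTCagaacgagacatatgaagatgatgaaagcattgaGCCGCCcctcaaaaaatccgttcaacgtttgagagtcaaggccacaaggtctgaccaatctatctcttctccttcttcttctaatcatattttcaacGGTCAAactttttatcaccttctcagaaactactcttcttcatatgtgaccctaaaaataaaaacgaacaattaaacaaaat
JAZ8: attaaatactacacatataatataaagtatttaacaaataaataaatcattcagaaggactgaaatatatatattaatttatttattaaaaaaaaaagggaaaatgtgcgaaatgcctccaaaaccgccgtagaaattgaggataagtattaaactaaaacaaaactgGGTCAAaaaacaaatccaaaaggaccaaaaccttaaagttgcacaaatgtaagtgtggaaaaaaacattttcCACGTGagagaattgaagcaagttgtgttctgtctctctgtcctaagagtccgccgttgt
AT1G56060: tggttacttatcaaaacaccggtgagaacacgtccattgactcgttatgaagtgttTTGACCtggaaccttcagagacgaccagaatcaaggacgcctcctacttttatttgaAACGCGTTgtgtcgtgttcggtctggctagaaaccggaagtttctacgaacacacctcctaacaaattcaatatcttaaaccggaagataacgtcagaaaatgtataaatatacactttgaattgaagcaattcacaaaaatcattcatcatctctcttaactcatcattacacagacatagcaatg
PER62: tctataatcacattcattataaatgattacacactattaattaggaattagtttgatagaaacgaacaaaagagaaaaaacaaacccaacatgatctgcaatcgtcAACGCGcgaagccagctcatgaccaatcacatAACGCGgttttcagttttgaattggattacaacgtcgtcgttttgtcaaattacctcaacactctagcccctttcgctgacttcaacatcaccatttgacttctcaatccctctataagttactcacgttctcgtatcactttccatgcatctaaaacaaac
In WRKY33 the W-box core is on the minus strand, read as GGTCAA 32 bases before the start, with a GCCGCC word 129 bases and an abscisic acid element ACGTGTC 170 bases before it. JAZ8 has the G-box 10 bases before the start and a minus-strand W-box core 82 bases before it. AT1G56060 has the W-box core 194 bases before the start, and its palindrome AACGCGTT holds CGCGTT on both strands. PER62 has CGCGTT on the minus strand, written AACGCG, in 2 places.

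Over all windows, searched on both strands, TTGACC was present in 24.1% of 912 promoters of genes higher by at least 1, 10.9% of 156 of genes lower by at least 1, and 14.4% of the 20135 tested genes with a window. CGCGTT was in 8.55%, 1.92% and 3.76%, GCCGCC, the word of ERF factors, in 4.71%, 1.28% and 2.72%, and CACGTG in 9.65%, 7.69% and 8.54%. The words AAACCCTA and TGGGCC, common before ribosomal protein genes, were rarer before the genes that rose, at 1.86% and 7.57% against 5.6% and 18.3% of tested genes. Before the genes that fell they were at 7.69% and 12.8%, so TGGGCC was rarer there too. Among lists, CACGTG was in 37.5% of photosystem promoters and 47.6% of clock promoters. These shares describe letters in a fixed window and were not tested.

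The machinery of growth and division moved much less than defence. Over all genes tested, 17.3% were higher and 15.2% lower. Of 43 core cell cycle genes 5 fell and 2 rose, none by 1 or more. CYCB1;1, a mitotic cyclin, was at 7.03, 8.74 and 6.99 FPKM in DMSO and 5.81, 6 and 8.37 in isoxaben and was not called (-0.16 ± 0.13, adjusted p = 0.368), while the G1 cyclins CYCD3-1 (-0.37 ± 0.08) and CYCD1-1 (-0.43 ± 0.14) fell, the latter call being lost without DMSO replicate 1 or 3 or isoxaben replicate 2 or 3 and with only the 6 libraries compared. The count of lower cell cycle genes was 1 to 3 without any one of the 6 libraries compared and 9 under quantile normalisation. Histones had 6 of 40 lower and 1 higher (3 lower without DMSO replicate 1 or isoxaben replicate 1, 10 under quantile normalisation). DNA replication genes had 2 of 29 lower (7 under quantile normalisation). The DNA damage list had 1 of 12 higher, RAD17, or 0 higher and 1 lower under quantile normalisation. The RAD17 call was also lost without DMSO replicate 1 or 3 or isoxaben replicate 1 or 2 and with only the 6 libraries compared. Cytosolic ribosomal proteins had 17 of 196 lower, or 8.67%, under the 15.2% of all genes, and 6 to 10 without DMSO replicate 1 or 2 or any one isoxaben replicate. Ribosome biogenesis had 6 of 24 lower (2 without DMSO replicate 1 or isoxaben replicate 2) and 1 higher, mitosis and cytokinesis 3 of 24 lower (1 without DMSO replicate 2 or isoxaben replicate 1) and 1 higher, and the inhibitors of cyclin-dependent kinases 3 of 20 lower and 2 higher, with SMR1 at -0.77 ± 0.14. Tubulins, the subunits of the microtubules that guide cellulose synthase, fell in 6 of 17 and rose in 0. TUBB5 (AT1G20010, chromosome 1, 6937719 to 6940832) was at 95.8, 90 and 92.5 FPKM in DMSO and 53.4, 49.7 and 56.9 in isoxaben (-0.79 ± 0.06, adjusted p = 6.22e-07). TUB1 had a change of -0.35 ± 0.12 (adjusted p = 0.0404). That call was lost without DMSO replicate 2 or 3 or isoxaben replicate 1 or 2, without the level filter and without the variance trend. Actins and their regulators had 6 of 39 higher (15.4%) and 4 lower (10.3%), under the shares over all genes. Decreases were also under 15.2% in core cell cycle genes (11.6%), DNA replication (6.9%), histones (15%), mitosis (12.5%) and kinase inhibitors (15%). Tubulins (35.3%) and ribosome biogenesis (25%) were above it.

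Aquaporins, which carry water through the plasma membrane and the vacuole membrane, fell in 15 of 29 and rose in 3 (5 without isoxaben replicate 3). Their summed level was 2881 to 2936 FPKM in the DMSO libraries and 1920 to 2073 in the isoxaben libraries. The vacuolar TIP1-2 (AT3G26520, chromosome 3, 9722443 to 9723904) was at 704, 707 and 698 FPKM and then 407, 327 and 406 (-0.89 ± 0.08, adjusted p = 2.64e-06), and the plasma membrane PIP2-4 at 16.8, 18.3 and 17 and then 8.88, 6.29 and 9.14 (-1.03 ± 0.12). Those that rose were SIP1-2 (0.87 ± 0.16), the boric acid channel NIP5-1 (0.54 ± 0.09) and SIP1-1 (0.26).

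Photosynthesis genes fell almost without exception, by small steps. In the photosystem and antenna list, which also holds Rubisco small subunits, 45 of 48 were lower and 0 higher (44 lower under quantile normalisation), with a median change of -0.55 and 2 genes lower by 1 or more. The median was -0.50, -0.54 and -0.58 in the 3 isoxaben libraries. Their summed level was 53130 to 58240 FPKM in DMSO and 40160 to 42460 in isoxaben. LHCA6, an antenna protein of photosystem I, was at 38.6, 34.9 and 31 FPKM and then 17.1, 11 and 15.4 (-1.22 ± 0.15, adjusted p = 2.52e-05). Chlorophyll synthesis fell in 14 of 17: CHLM had a change of -0.78 ± 0.10 and PORC one of -0.76 ± 0.10. The single rise was HEMA2 (1.00 ± 0.10), a glutamyl-tRNA reductase also expressed in roots. Of 21 clock genes 2 fell (PRR3 and RVE2) and 0 rose.

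Nutrient genes changed in both directions, beside 17.3% higher and 15.2% lower over all genes tested. Phosphate starvation genes fell in 6 of 19 and rose in 1 (PHT1-4, 0.34 ± 0.10, a call lost without DMSO replicate 1 or isoxaben replicate 2 and under quantile normalisation), and iron uptake genes fell in 5 and rose in 1 (F6'H1), a count of 3 lower without DMSO replicate 3 or isoxaben replicate 1. The nicotianamine synthase NAS1, which makes an iron chelator, went from 77, 90.4 and 92.5 FPKM to 51.7, 44.7 and 50.1 (-0.81 ± 0.08, adjusted p = 4.61e-06). In nitrate use, the transporter NPF7.2 rose by 2.36 ± 0.16 and the asparagine synthetase ASN2 fell from 248, 277 and 245 FPKM to 173, 142 and 164, with 7 of 19 genes higher and 4 lower. Sugar starvation and trehalose genes had 9 of 30 higher, led by DIN11 (3.63 ± 0.29), a gene named for its induction in the dark, and 6 lower.

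**Figure D4:**
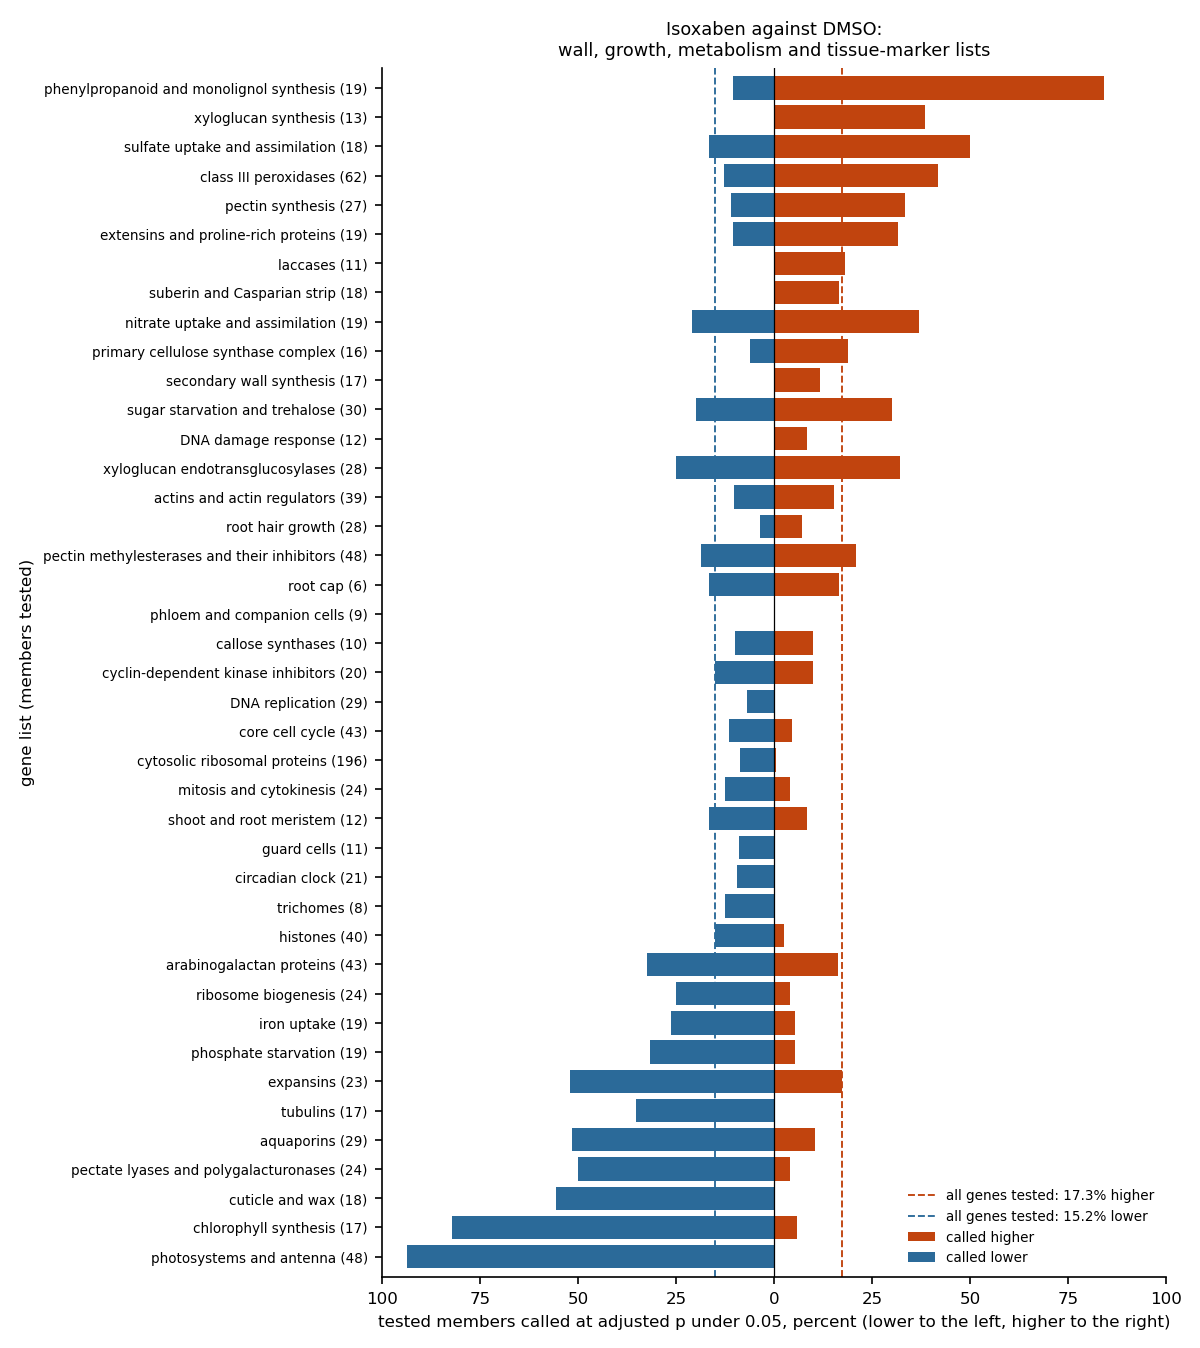
Percent of tested members higher (right) and lower (left) after isoxaben for the lists of wall, growth, metabolism and tissue marker genes, ordered by the difference. Dashed lines mark 17.3% higher and 15.2% lower, the shares over all genes. Photosystem genes (45 of 48 lower) lie at one end and phenylpropanoid genes (16 of 19 higher) at the other.

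Protein handling in the secretory system rose, beside 17.3% higher and 15.2% lower over all genes tested. Endoplasmic reticulum folding genes were higher in 21 of 27 and lower in 0, with a median of 0.38. bZIP60 (AT1G42990, chromosome 1, 16135723 to 16137463), a transcription factor of the unfolded protein response, was at 25.2, 30.5 and 29 FPKM and then 74.8, 79.9 and 67 (1.36 ± 0.09, adjusted p = 1.52e-07). Exocytosis genes rose in 19 of 34 and fell in 0, among them the secretory syntaxin SYP122 (12.3, 14.2 and 16 FPKM to 52.3, 59.4 and 40; 1.75 ± 0.13) and the exocyst subunit gene ATEXO70E2 (1.74 ± 0.09). Heat shock genes were nearer those shares, with 14 of 59 higher (23.7%) and 8 lower (13.6%). The lower count was 5 without DMSO replicate 1 or 2 or isoxaben replicate 1 or 2. Autophagy had 5 of 35 higher (14.3%), or 2 or 3 without DMSO replicate 1 or 2 or isoxaben replicate 1 or 2. The proteasome had 3 of 51 higher (5.88%), or 0 under quantile normalisation or without DMSO replicate 1 and 1 without DMSO replicate 2. Both lists were under the 17.3% higher over all genes tested.

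Outside the photosynthetic genes, each tissue marker list had 0 to 3 genes called, beside 17.3% higher and 15.2% lower over all genes tested. Root hair genes had 2 of 28 higher and 1 lower, and their summed level was 414 to 574 FPKM in DMSO and 546 to 568 in isoxaben. Phloem and companion cell markers had 0 of 9 called, guard cell markers 1 of 11 lower (the stomatal lineage factor MUTE, -0.51 ± 0.13; 4 lower under quantile normalisation), trichome markers 1 of 8 lower (GIS, -1.18 ± 0.20), and root cap markers 1 of 6 in each direction. The summed level of the root cap markers was 25.4 to 26.8 FPKM in DMSO and 18.9 to 22.9 in isoxaben. Most of it was the auxin carrier PIN3, the 1 lower gene, at 21.7, 18.6 and 19.1 FPKM and then 13.1, 12.8 and 15.8 (-0.48 ± 0.10, adjusted p = 0.002). The median change of the 6 tested root cap genes was -0.01, so the lower sum describes PIN3 and not the markers as a set. The meristem list summed to 54.4 to 56.5 FPKM in DMSO and 47.4 to 52 in isoxaben. In the meristem list the stem cell regulator STM went from 2.69, 3.03 and 3.07 FPKM to 1.32, 1.68 and 1.4 (-0.67 ± 0.13, adjusted p = 0.0011), CLV1 fell (-0.34 ± 0.08) and the root peptide gene RGF2 rose (0.46 ± 0.13), a call lost without DMSO replicate 2 or isoxaben replicate 2 and with voom. The part of shifts in tissue makeup in the changes above was not tested.

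A survey by protein domain gave a view that did not depend on chosen pathways. In 185 families with at least 10 tested members, the highest shares of increases included Exo70 exocyst subunits (9 of 15 higher, 1 lower), MatE exporters (23 of 45, 2 lower), U-box ubiquitin ligases (21 of 41, 3 lower), leucine-rich repeat receptors of the LRRNT_2 family (20 of 38, 4 lower) and PP2C phosphatases (26 of 65, 5 lower). Protein kinases with the domain label Pkinase_Tyr, the largest of these families, had 100 of 277 higher and 22 lower. Families with many decreases and few increases included serine carboxypeptidases of family S10 (0 of 30 higher, 15 lower), zinc finger homeodomain factors (0 of 14, 7 lower), FKBP isomerases (1 of 22, 10 lower) and CCT-domain factors (1 of 26, 10 lower). Pentatricopeptide repeat proteins of organelle RNA processing had 0 of 74 higher and 15 lower. With 17.3% higher and 15.2% lower over all genes tested, their decreases were near the common share and their increases under it. Cytochromes P450 were balanced, with 37 of 164 higher and 36 lower.

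Genes on none of the 88 lists, which held 2392 tested genes, included some of the largest changes. AIG1, a GTPase gene induced by avirulent bacteria, was at 1.23, 1.73 and 1.62 FPKM in DMSO and 59.4, 87.1 and 35.6 in isoxaben (4.52 ± 0.23, adjusted p = 1.04e-08). BCB, a blue-copper-binding protein gene linked to lignin formation, went from 6.81, 5.86 and 6.34 to 149, 159 and 95.4 (4.17 ± 0.15, adjusted p = 6.78e-10). VQ10, whose protein family binds WRKY factors, rose by 3.52 ± 0.18, and the neighbouring genes AT5G22520 and AT5G22530, with no annotated role, by 3.62 ± 0.15 and 3.72 ± 0.21. Among the decreases were MES10, a methylesterase gene (23.2, 17 and 23.8 FPKM to 6.25, 4.86 and 5.4; -1.77 ± 0.16), the aldolase FBA5 (-1.73 ± 0.18) and AT3G59370 (-1.72 ± 0.23).

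Isoxaben given together with PEP3, against PEP3 alone, repeated the effect in 6 other libraries. There 1673 genes were called (8.26%), 1218 higher (6.02%) and 455 lower (2.25%), and 1011 without replicate 2 of isoxaben plus PEP3. Of the 3503 genes higher with isoxaben alone, 3197 (91.3%) had an increase in the repeat, 1149 (32.8%) were called higher and 3 lower. Of the 3074 lower genes, 2726 (88.7%) had a decrease, 370 (12.0%) were called lower and 1 higher. Changes were smaller there, with a median of 0.25 for the higher genes against 0.59 with isoxaben alone, and -0.16 against -0.45 for the lower genes; the first values had chosen the genes. Of the 914 genes higher by at least 1, 673 (73.6%) were called higher again, and of the 156 lower by at least 1, 74 (47.4%) lower again.

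Lists differed in how far they were called again. XTH22 rose by 2.79 ± 0.20 in the repeat, from 5.03, 7.11 and 6.03 FPKM to 46.1, 53 and 44, close to its 2.93 with isoxaben alone. Pattern receptors had 12 of 18 higher, JAZ repressors 9 of 12, phenylpropanoid genes 11 of 19, calcium sensors 16 of 48 and WRKY factors 17 of 59. Aquaporins had 11 of 29 lower, expansins 7 of 23 lower and 4 higher, and tubulins 3 of 17 lower. The photosystem list had 0 of 48 called in either direction, with a median of -0.06. The test of the difference itself, isoxaben effect with PEP3 minus without, called 1263 genes (6.24%), 393 of them higher (1.94%), and 23 of the 48 photosystem genes higher. Endoplasmic reticulum folding had 3 of 27 higher in the repeat, and flavonoid genes 0 of 21 called. For these lists the PEP3 baseline of the repeat differed from DMSO. With isoxaben alone against PEP3 alone, medians were -0.21 for photosystem genes, 0.03 for endoplasmic reticulum folding and 0.17 for flavonoid genes. Against DMSO they were -0.55, 0.38 and -0.42. What part PEP3 itself had in the smaller changes was not tested.

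**Figure D5:**
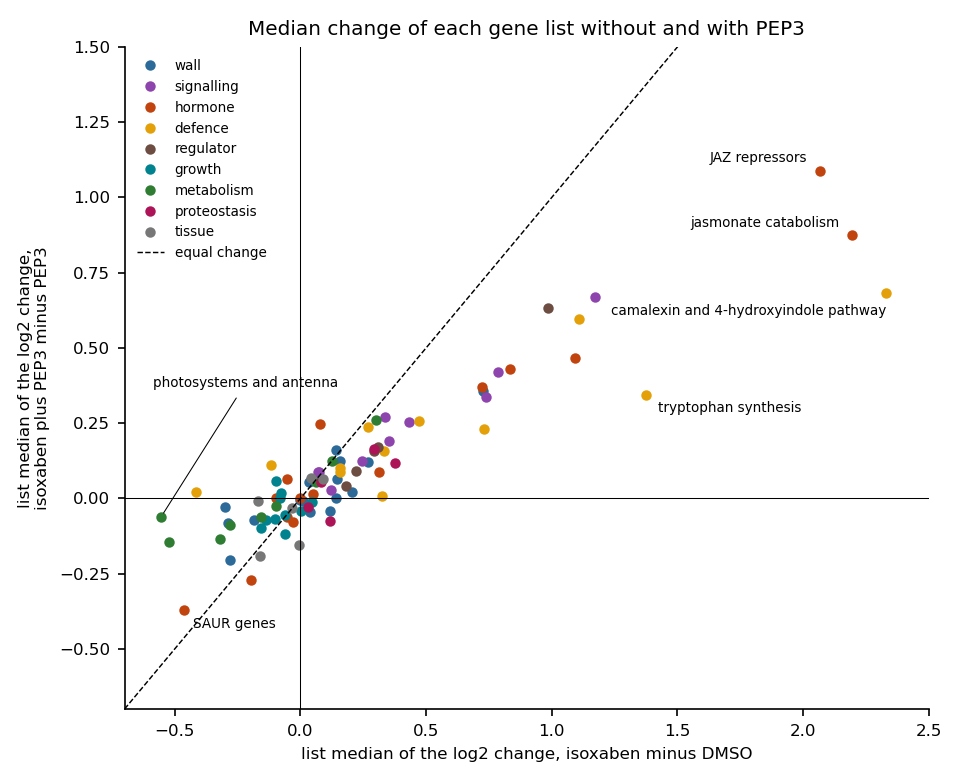
Median log2 change of each list with isoxaben against DMSO (horizontal axis) and with isoxaben plus PEP3 against PEP3 (vertical axis), on the log2(FPKM + 1) scale, with colours for the kind of list and a dashed line for equal change. Lists with a median above 0.5 lie below that line with a positive median in the repeat, and the photosystem list goes from -0.55 to -0.06.

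Set directly against PEP3, a peptide that triggers immune signalling, isoxaben gave 4471 calls (22.1%), 2494 higher (12.3%) and 1977 lower (9.76%). This comparison shares the isoxaben libraries with the comparison against DMSO, so its values are not independent of those above. JAZ repressors were higher in 11 of 12 and jasmonate catabolism genes in 9 of 10. JAZ10 stood at 1.49, 1.3 and 1.4 FPKM with PEP3 and 30.1, 34.1 and 23.7 with isoxaben (3.65 ± 0.12, adjusted p = 1.33e-09). Both glucosinolate classes were higher with isoxaben than with PEP3, the aliphatic genes in 14 of 20 with 1 lower and the indole genes in 12 of 15. The aliphatic median was 0.37 against PEP3 but -0.12 against DMSO, so these genes were not raised over the mock. The indole median was 0.63 against PEP3 and 1.11 against DMSO. Wall-associated kinases split into 4 higher and 4 lower of 16, peroxidases into 12 and 12 of 62, and endoplasmic reticulum folding into 5 and 6 of 27. In the primary cellulose synthase list 6 of 16 were higher and 0 lower, with a median of 0.14 against PEP3 and 0.03 against DMSO. Photosystem genes were lower in 12 of 48.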

How the data were processed

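The authors deposited 1 table of FPKM values per gene for the 12 libraries (paired-end reads of poly(A) RNA); HISAT2 2.0.5 and the TAIR10 build are named in the submitters' processing notes, and no counting program or strand setting is given in the sources used here. No value column was left unmapped. FPKM values were read as log2(FPKM + 1), and genes averaging under 0.5 FPKM in the series were dropped. A linear model with 1 mean per treatment was fitted to all 12 libraries in limma 3.58.1 (R 4.3.3, trend on mean level), giving 8 residual degrees of freedom, and calls were made at a Benjamini-Hochberg adjusted p under 0.05 over all 20248 genes. The script was tested on simulated data. Whole fragments could be recovered from 100% of the deposited values within a tolerance of 0.01, which gave the depths and an alternative fit. The precision is limited by 3 libraries per treatment.

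The 88 lists and the members described were chosen with earlier results of these data known. Genes were named by rule: a panel of 20, up to 2 called members per list at each end whose isoxaben and DMSO libraries did not overlap, and the 10 highest and 10 lowest such genes on no list. Members named beyond the rule, to account for small counts or to show a pathway, were chosen after their values were seen. Deposited IDs were matched to RefSeq (32548 matched, 99.95% with the same start and end in TAIR10.1), and promoters were cut from that genome. Of the genes named, ASB1, FBA5, FOX1, PAI1, PAL1, TUB1 and AT1G21120 have an expressed copy at least 85% identical over 50% or more of the gene, and ARR6 and SIP1-2 overlap an expressed gene on the other strand by 348 and 444 bases, so their values are uncertain where reads were shared. Alternatives covered the filter, pseudocount, scaling, gene length, samples fitted, thresholds, a replicate block and each library left out.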

Additional observations from a re-analysis of the deposited data

Results flagged for a closer look

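In the panel of 20 genes, 4 had an isoxaben effect that differed between seedlings with and without PEP3 in the limma test of that difference, which called 6.24% of all genes. All 4 rose in both settings and rose less with PEP3. For WRKY33 the difference was -1.65 (SE 0.209, adjusted p = 0.000804): isoxaben raised it by 3.19 on the log2 scale without PEP3 and by 1.55 with it, and its level with PEP3 alone was 19, 26.1 and 28.7 FPKM, above every DMSO library. For JAZ10 it was -1.19 (SE 0.175, adjusted p = 0.00228), from 3.26 to 2.08, and with PEP3 alone JAZ10 was at 1.49, 1.3 and 1.4 FPKM, below every DMSO library. PAL1 had a difference of -0.83 (SE 0.146, adjusted p = 0.00538), from 1.38 to 0.55. RBOHD had one of -0.63 (SE 0.122, adjusted p = 0.00921), from 1.26 to 0.63. The other named genes were chosen by the size of their change with isoxaben alone, which biases this difference, and were left out.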

How the results depend on the processing

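The count of genes called between isoxaben and DMSO, 6577, was 6378 without the level filter, 6906 under quantile normalisation, 6145 with only the 6 libraries compared, 6912 with voom on recovered fragments, and 5258 to 6605 with each of the 12 libraries left out in turn. Stricter thresholds, which keep fewer genes by construction, moved counts by more than 1.5 times: with a change of at least 1 they were 1070 for isoxaben against DMSO, 290 for the repeat and 686 against PEP3, and at an adjusted p under 0.01 they were 835 for the repeat and 2712 against PEP3. Leaving out each library gave 1011 to 1920 for the repeat and 3392 to 4468 against PEP3. The 1011, without isoxaben plus PEP3 replicate 2, also moved by more than 1.5 times, and the cause was not tested. Same-numbered replicates did not deviate together (correlations of -0.0091, -0.0130 and -0.1105 for DMSO and isoxaben), and a fit with the replicate number as a block called 6380, 1622 and 4295 genes. Of the named genes' alternative values, 5102 kept their direction and side of the threshold, 176 lost the call and 6 changed sign, all 6 for genes that were not called: CESA6 was at -0.0389 under quantile normalisation and -0.0075 to 0.0366 with a library left out, CSI1 -0.0442 to 0.0217, EXPA7 -0.0450 to 0.195 and HTR2 -0.0917 to 0.0345. Of the list counts, 223 of their alternative values moved by over 1.5 times and 2945 did not. Low FPKM limits the genes near 0.5, where the added 1 shrinks changes.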

Other observations

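Nuclear genes of the chloroplast NDH complex, which carries cyclic electron flow around photosystem I and to which LHCA6 is a linker, were on no list and were gathered after PNSL3 was seen among the largest decreases, so they are described with no test of the group. Of 17 annotated subunits 16 were measured above the level for testing, and their median log2 change with isoxaben was -0.86, against -0.55 for the photosystem and antenna list. PNSL3 was at 35.1, 24.5 and 25.4 FPKM in DMSO and 8.4, 5.24 and 12.7 in isoxaben, PNSL2 at 27.4, 27.5 and 22.5 and then 10.6, 8.56 and 9.47, and NDHM at 32, 31 and 25.9 and then 12.8, 9.84 and 15.6. These 3 genes had the largest decreases of the 16. The groups did not overlap in any of them, nor in 45.2% of all genes tested. PNSL5, a lumenal isomerase, had a change of -0.08. With PEP3 present in both groups, the median change was -0.23.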
